A study of Mus musculus with 15 samples.

Results

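The 9 genes described here carry the adrenergic signal across the fat cell membrane and into the cell: the receptor genes Adrb1, Adrb3 and Adra2a, the Gs subunit gene Gnas, the regulator Rgs2, the arrestin gene Arrb1, the adenylyl cyclase gene Adcy3, and the protein kinase A genes Prkaca and Prkar2b. They were taken by symbol from a table of 24015 genes. All 9 of the 9 passed the filter on low counts, which left 15288 genes for testing. PolyA RNA of inguinal white adipose tissue, the subcutaneous fat pad of the groin, was sequenced in C57BL/6 mice. All mice had been kept for 2 weeks at thermoneutrality, a temperature at which a mouse needs no extra heat production, and had then received vehicle or CL by intraperitoneal injection for 5 days. The groups were vehicle at 2 months (Young_Ctrl, n = 4), CL at 2 months (Young_CL, n = 4), vehicle at 12 months (Old_Ctrl, n = 3, replicates 1, 3 and 4; its replicate 2 was not analysed here) and CL at 12 months (Old_CL, n = 4). The sample labels write CL out as cardiolipin, but the abbreviation is also in common use for an agonist of the β3-adrenergic receptor, and which of the pair was injected could not be settled. Nothing in the labels ties a library to a separate animal, so the p-values below speak only of the spread between these samples.

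In adipocytes, noradrenaline from sympathetic nerves binds β-adrenergic receptors, which act through the stimulatory G protein Gs to switch on adenylyl cyclase. The cyclic AMP so made binds the regulatory subunits of protein kinase A and releases its catalytic subunits, which start fat breakdown and, in beige and brown cells, heat production. α2-adrenergic receptors act through the inhibitory G protein Gi and lower cyclic AMP, while RGS proteins, receptor kinases and arrestins limit the signal at the G protein and at the receptor.

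Total counts ran from 6115542 to 51577001 per library. Adipocyte markers were abundant in every library, 9 of 9 with counts throughout, but their summed level differed between the groups: 14465 to 34163 CPM (counts scaled to a common library size by TMM) in Young_Ctrl, 32394 to 37599 in Young_CL, 26653 to 39261 in Old_Ctrl and 45532 to 56306 in Old_CL. In a bulk sample, fewer cells of a type and less RNA per cell cannot be told apart. Young_Ctrl 1, with 34163 CPM of adipocyte markers, stood apart from the other 3 libraries of its group, which had 14465 to 21143. Skeletal muscle markers, 11 of 11 with counts in every library, summed to 2629 to 8102 CPM in Young_CL 1, 2 and 3, Old_Ctrl 3 and Old_CL 3 and to 38.0 to 382 CPM elsewhere. B cell and lymph node markers, 8 of 8 with counts in every library, summed to 1358 to 1878 CPM in Young_Ctrl, 776 to 1126 in Young_CL, 445 to 930 in Old_Ctrl and 413 to 546 in Old_CL. Among the 7 markers of Schwann cells and sympathetic nerve, the noradrenaline synthesis genes Th and Dbh had no count in at least 1 library of every group. Old_CL 1, 2 and 4 were closer to each other (robust SD of log2 ratios at most 0.0933) than any of the other 18 pairs within a group (0.116 to 0.747), but differed by more than sampling noise (chi-square per degree of freedom 2.65 to 4.90) and were kept as separate samples.

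CL changed most of these genes at both ages. The 9 genes, and the gene lists further below, were chosen with earlier results of these data known. Shares and medians over all genes are therefore given beside them for scale, and an excess over these is not a test. At 2 months 5 of the 9 rose and 1 fell (edgeR, adjusted p under 0.05), against 43.9% of all genes called in that comparison, 21.7% higher and 22.1% lower. The libraries of the groups did not overlap for 5 of the 9, against 34.1% of all genes. At 12 months 6 of the 9 rose and 1 fell, against 45.2% of all genes called, 23.1% higher and 22.2% lower, and 7 did not overlap, against 52.8%. Rgs2, Prkar2b, Prkaca, Gnas and Adcy3 rose at both ages, Adrb3 passed the test at 12 months, Arrb1 fell at 2 months and Adra2a at 12 months. The median log2 change of the 9 was 0.56 at 2 months and 0.62 at 12 months, against -0.07 and -0.01 over all tested genes. The age comparisons called fewer of them: 2 of 9 under vehicle, both higher (27.2% of all genes called, 15.1% higher and 12.2% lower), and 4 of 9 under CL, 2 in each direction (40% called, 20.5% higher and 19.4% lower). The test of whether the CL response differed with age called 1 of 9, as lower (7.08% called, 3.31% higher and 3.77% lower). Libraries did not overlap for 2 of 9 in the age comparison under vehicle (27.1% of all genes) and 6 of 9 under CL (44.9%). With upper-quartile scaling in place of TMM the median of all genes moved to -0.15 at 2 months, and the medians of the 9 genes were 0.48 and 0.55. The split of all called genes went from 3323 higher and 3383 lower to 2839 higher and 4491 lower at 2 months and from 3525 and 3391 to 2893 and 4086 at 12 months.

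The calls were not equally firm. Rgs2 and Prkar2b passed the test for CL at both ages in each alternative run. With the 5 muscle-rich libraries left out, which leaves 1 Young_CL library, these 2 were the members called at 12 months. A marker score is the mean log2 CPM of the tested markers of a list. With the B cell score as a covariate, 2 of the 9 were called at 2 months (Rgs2 and Prkar2b) and 3 at 12 months (these and Adra2a). With the adipocyte score as a covariate, 3 of the 9 were called at 12 months: Rgs2 and Prkar2b as higher, and Adrb1 as lower (-0.97, edgeR adjusted p = 0.0348). The B cell and adipocyte markers themselves differ between the groups, so these scores cannot separate cell content from CL or age. A call can then be lost through a wider error as well as a smaller change. With the B cell score 15 genes were called for age under vehicle, against 4162 without it. Beyond these covariates and left-out libraries, the part of cell content in the changes was not tested.

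**Figure D1:**
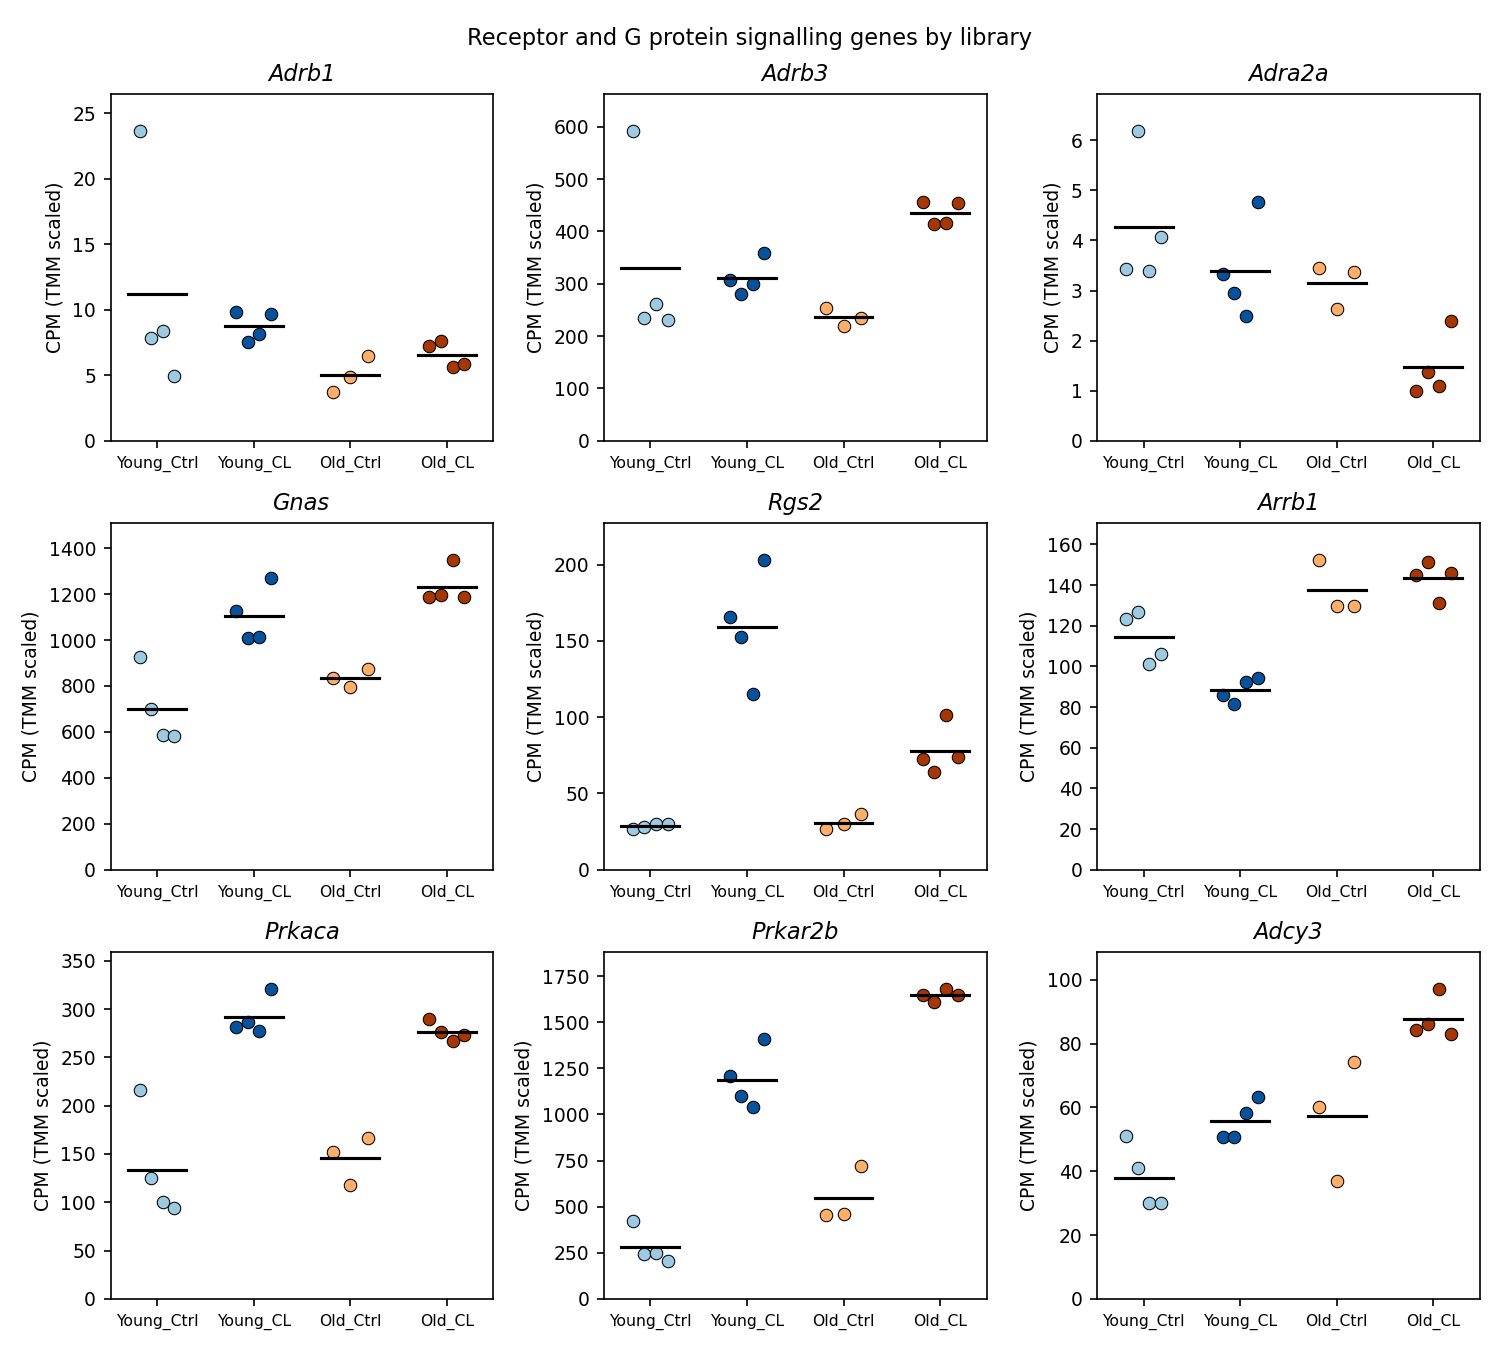
TMM-scaled CPM of each of the 9 genes (vertical axis from 0, its own scale in each panel) in every library, 1 dot per library, with a bar at the group mean. Rgs2, Prkar2b and Prkaca stand higher in every CL library than in every vehicle library of the same age, and Young_Ctrl 1 lies far above its group for Adrb3, at 592 CPM.

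Per kilobase of exon, a rough way to compare levels between genes, the order in Young_Ctrl was Adrb3 (mean 114 CPM per kb), Prkar2b (76.6), Gnas (67.4), Prkaca (53.8), Arrb1 (16.0), Rgs2 (8.86), Adcy3 (7.56), Adrb1 (3.80) and Adra2a (0.883). Within each of the 4 Young_Ctrl libraries Adrb3 was the highest and Prkaca the fourth, while Prkar2b and Gnas changed places between libraries (55.7 to 116 and 56.1 to 89.4 CPM per kb), as did Rgs2 and Adcy3 (8.29 to 9.30 and 5.97 to 10.1). In Old_CL the order was Prkar2b (451), Adrb3 (150), Gnas (118), Prkaca (111), Rgs2 (24.0), Arrb1 (20.0), Adcy3 (17.4), Adrb1 (2.23) and Adra2a (0.303). There Prkar2b stood clear of Adrb3 (441 to 461 against 143 to 158 CPM per kb), Gnas overlapped Prkaca (114 to 130 against 107 to 116), and Rgs2 overlapped Arrb1 (19.8 to 31.3 against 18.3 to 21.2), which in turn overlapped Adcy3 (16.5 to 19.3). Lengths are the union of GENCODE M21 exons, an annotation of a later mouse build than the counts. For Gnas, whose row sums several transcripts, this union is 10376 bases, against 2893 for Adrb3 and 2488 for Prkaca. A shorter length would raise the Gnas value, so its place relative to Adrb3, Prkar2b and Prkaca is not settled.

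Cyclic AMP acts on transcription largely through factors of the CREB family, which bind the palindrome TGACGTCA and the shorter core TGACG. The 250 bases before the RefSeq transcription start (GRCm38.p6) were therefore searched on both strands; a full element also counts as a core. Of the 9 genes 7 had such windows in the table, 13 windows in all. No window held TGACGTCA, which occurs in 1.55% of 32851 windows of that length. TGACG was present in the window of the 5′-most start of 4 of the 7 genes, against 17.8% of all windows, while these 7 windows had 61.6 to 75.6% G and C against a median of 52.4%. In any of their windows 5 of the 7 genes held it, a count over several windows per gene that the 17.8% does not match. Gnas held it before later starts and not before its 5′-most start. The 4 windows below belong to the 3 genes with the largest increases after CL and to the receptor gene that fell in aged mice; each is printed 5′ to 3′ on the strand of the gene, ends at the base before the start, and has TGACG or its reverse complement CGTCA in capitals. A match is a description of letters and not a site shown to be bound.
Rgs2 (chr1:144004150-144004399, minus strand): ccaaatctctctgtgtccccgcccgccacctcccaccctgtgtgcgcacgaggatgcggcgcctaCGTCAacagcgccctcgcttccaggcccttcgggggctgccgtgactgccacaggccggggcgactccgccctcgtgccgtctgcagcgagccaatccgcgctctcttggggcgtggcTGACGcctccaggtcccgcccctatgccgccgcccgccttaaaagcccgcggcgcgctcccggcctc
Prkaca (chr8:83972728-83972977, plus strand): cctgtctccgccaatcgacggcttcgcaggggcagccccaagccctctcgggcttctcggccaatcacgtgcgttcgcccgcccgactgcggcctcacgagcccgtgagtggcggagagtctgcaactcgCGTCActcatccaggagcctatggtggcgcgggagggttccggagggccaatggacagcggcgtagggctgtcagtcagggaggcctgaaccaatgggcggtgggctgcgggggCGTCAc
Prkar2b (chr12:32061278-32061527, minus strand): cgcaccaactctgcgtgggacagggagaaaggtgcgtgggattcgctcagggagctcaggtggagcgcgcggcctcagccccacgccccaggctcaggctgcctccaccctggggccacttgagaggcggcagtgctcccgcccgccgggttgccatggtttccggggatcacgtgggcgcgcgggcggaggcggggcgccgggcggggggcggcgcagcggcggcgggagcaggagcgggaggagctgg
Adra2a (chr19:54045009-54045258, plus strand): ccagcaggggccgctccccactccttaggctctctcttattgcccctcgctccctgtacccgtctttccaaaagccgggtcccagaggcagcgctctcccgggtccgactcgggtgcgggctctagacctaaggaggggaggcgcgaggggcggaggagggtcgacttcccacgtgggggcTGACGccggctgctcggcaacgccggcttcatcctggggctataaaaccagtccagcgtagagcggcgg
The Rgs2 window holds the core at 185 and 67 bases before the start, the Prkaca window at 120 and 6 and the Adra2a window at 69. The Prkar2b window holds none, although Prkar2b had the second-largest increase at 2 months and the largest at 12 months, so genes with and without the core are found among those that rose. Adrb1, whose own window holds the core 90 bases before the start, did not pass the test for CL at either age.

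Of the receptors, Adrb3, the β3 receptor of fat cells, was by far the most abundant. It stood at 592, 235, 260.5 and 231 CPM in Young_Ctrl 1 to 4 and at 308, 280.2, 299 and 359 CPM in Young_CL 1 to 4. The groups overlap because of Young_Ctrl 1, whose value exceeds that of every other library in the study. In aged mice it stood at 253, 219 and 235 CPM under vehicle and at 456, 414, 416 and 453 CPM after CL, with every CL library above every vehicle library. The aged mean rose 1.85-fold, from 236 ± 17.0 (SD, n = 3) to 435 ± 22.9 CPM (SD, n = 4; edgeR log2 difference 0.88, SE 0.26, adjusted p = 0.0118). At 2 months the means were 329.8 ± 175 and 312 ± 33.6 CPM (log2 change -0.08, 95% interval -0.58 to 0.42, edgeR adjusted p = 0.803). The young change went both ways with the setting: it was 0.36 (edgeR adjusted p = 0.00702) without Young_Ctrl 1 and -0.64 (adjusted p = 0.0299) with the adipocyte score as a covariate. The difference between the ages was 0.97 on the log2 scale (interval 0.23 to 1.70, edgeR adjusted p = 0.0998), and 0.52 (adjusted p = 0.0291) without Young_Ctrl 1. The aged groups do not overlap in summed adipocyte markers (26653 to 39261 CPM in Old_Ctrl, 45532 to 56306 in Old_CL), so a covariate cannot separate these from CL. With the adipocyte score as a covariate the aged increase was 0.08 (edgeR adjusted p = 0.861). It was 0.87 (adjusted p = 0.0563) with Old_CL 1, 2 and 4 counted as 1 sample, 0.86 (adjusted p = 0.0831) without the 5 muscle-rich libraries and 0.71 (adjusted p = 0.111, edgeR) with the B cell score. Without strand information, reads of Adrb3 and of the antisense gene Gm45470, which shares 545 exonic bases with it, cannot be told apart.

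Adrb1, the β1 receptor best known from the heart and present in fat cell precursors, was a minor transcript. It had 23.7, 7.82, 8.41 and 4.95 CPM in Young_Ctrl, 9.80, 7.51, 8.12 and 9.69 in Young_CL, 3.75, 4.89 and 6.48 in Old_Ctrl, and 7.20, 7.58, 5.61 and 5.89 in Old_CL. All 4 groups overlap with at least 1 other, and Young_Ctrl 1 is again the highest library. No comparison passed the test: the CL change was -0.30 at 2 months (interval -1.06 to 0.45, edgeR adjusted p = 0.512) and 0.34 at 12 months (interval -0.48 to 1.16, adjusted p = 0.494). The age difference under vehicle came nearest (-1.07, interval -1.91 to -0.23, edgeR adjusted p = 0.0548), and 6 of 19 alternatives called it lower in aged mice. Among these were DESeq2 (-1.13, adjusted p = 0.0131), the adipocyte score (-1.69, edgeR adjusted p = 0.000541) and the fit without Young_Ctrl 4 (-1.33, adjusted p = 0.0194). Without Young_Ctrl 1 it was -0.44 (edgeR adjusted p = 0.128). The CL change at 2 months was called in 1 of 20 alternatives, with the adipocyte score (-1.24, edgeR adjusted p = 0.00144), and turned sign in 2. Under CL the age difference was -0.43 (edgeR adjusted p = 0.353). It was called in 2 of 21 alternatives, the adipocyte score among them (-1.43, edgeR adjusted p = 0.000455). Adrb1 counts amounted to 3.17% ± 0.768 of Adrb3 counts in Young_Ctrl, 2.82% ± 0.243 in Young_CL, 2.16% ± 0.643 in Old_Ctrl and 1.51% ± 0.243 in Old_CL (SD over 4, 4, 3 and 4 libraries), as a description of counts not adjusted for length.

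Adra2a, the α2A receptor that restrains fat breakdown through Gi, fell in aged mice. Old_CL libraries had 0.998, 1.38, 1.09 and 2.39 CPM, all below the 3.46, 2.64 and 3.36 CPM of Old_Ctrl. The mean went from 3.15 ± 0.450 (SD, n = 3) to 1.46 ± 0.639 CPM (SD, n = 4), a 2.13-fold decrease (edgeR log2 difference -1.09, SE 0.31, adjusted p = 0.0102). At 2 months it had 3.42, 6.19, 3.39 and 4.06 CPM under vehicle and 3.34, 2.94, 2.49 and 4.77 CPM after CL, and these overlap (log2 change -0.32, interval -0.92 to 0.27, edgeR adjusted p = 0.368). The age difference under CL was -1.22 (SE 0.29, edgeR adjusted p = 0.00419) and the interaction -0.77 (interval -1.66 to 0.12, adjusted p = 0.254), so a different response with age was not shown. The counts behind these values were low, 14 to 147 per library. The aged decrease was -1.06 (edgeR adjusted p = 0.0504) without the 5 muscle-rich libraries and -1.09 (adjusted p = 0.14) with the adipocyte score, and the age difference under CL was -1.07 (adjusted p = 0.144) with the B cell score.

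Over the list of 8 adrenergic receptor genes, 7 were tested. At 2 months 1 rose and 0 fell (21.7% of all genes higher and 22.1% lower), and at 12 months 3 rose and 2 fell (23.1% and 22.2% of all genes). Under vehicle 2 were higher in aged mice and 0 lower (15.1% and 12.2% of all genes), and under CL 1 was higher and 1 lower (20.5% and 19.4%). Adra1a, an α1 receptor that signals through Gq, was the member that rose at both ages, from 9.12 ± 4.91 to 24.6 ± 7.84 CPM at 2 months (SD, n = 4 and 4, log2 difference by edgeR 1.48, adjusted p = 0.00344) and from 8.67 ± 3.36 to 28.0 ± 1.20 CPM at 12 months (SD, n = 3 and 4, log2 change 1.70, adjusted p = 0.00239). The other α1 receptors moved apart in aged mice: Adra1d rose by 0.95 (edgeR adjusted p = 0.0121; 0.25 and adjusted p = 0.689 with the adipocyte score) and Adra1b had a log2 change of -1.62 (edgeR adjusted p = 0.00118), from 5.73 ± 1.98 to 1.92 ± 0.261 CPM (SD, n = 3 and 4). With the adipocyte score as a covariate the Adra1a increases were 0.60 at both ages (edgeR adjusted p = 0.312 and 0.371). The young increase also did not pass with the B cell score (adjusted p = 0.207, edgeR).

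Other receptors that raise or lower cyclic AMP were counted over lists of genes. Of the 11 tested receptors that couple to Gs, 1 rose and 4 fell after CL at 2 months and 0 rose and 6 fell at 12 months (median log2 change -0.35 and -0.60), beside 21.7% of all genes higher and 22.1% lower at 2 months and 23.1% and 22.2% at 12 months. Ptger4, a prostaglandin E2 receptor, fell at both ages (-0.75 and -0.88, edgeR adjusted p = 0.000309 and 0.000171), as did the VIP receptor gene Vipr1 (-1.02 and -0.88, adjusted p = 0.00216 and 0.00966). Both genes are also expressed by lymphocytes; 8 of 8 B cell markers and 8 of 8 T cell markers fell at 2 months, and 5 and 8 at 12 months. With the B cell score as a covariate Vipr1 was at -0.41 and -0.53 (edgeR adjusted p = 0.4 and 0.0968), whereas Ptger4 kept its call at both ages. The aged Ptger4 decrease held in each of 20 alternatives (-0.96 to -0.60). The young one held in 19 of 20 (-0.86 to -0.49), the exception being the fit without the muscle-rich libraries. Of the 9 tested receptors that couple to Gi, 7 rose and 1 fell at each age (median 0.69 and 0.91), beside the same shares of all genes. Of the 9 adipocyte markers 6 and 7 rose in the same comparisons, and their part in these counts was not tested beyond the covariate fits. Ptger3, the Gi-coupled prostaglandin E2 receptor, rose most: from 26.8 ± 4.85 to 76.9 ± 17.8 CPM at 2 months (SD, n = 4 and 4, log2 difference by edgeR 1.52, adjusted p = 0.000147) and from 10.4 ± 4.96 to 44.9 ± 6.71 CPM at 12 months (SD, n = 3 and 4, log2 change 2.01, adjusted p = 6.71e-05). The succinate receptor gene Sucnr1 rose by 0.69 and 0.90 (edgeR adjusted p = 0.00433 and 0.000954) and the cannabinoid receptor gene Cnr1 by 0.41 and 0.91 (adjusted p = 0.0208 and 0.000144). Sucnr1 was at 0.12 and 0.20 with the adipocyte score as a covariate (edgeR adjusted p = 0.513 and 0.309). The young Cnr1 call was lost in 9 of 20 alternatives, with upper-quartile scaling (0.32, edgeR adjusted p = 0.06) and without the muscle-rich libraries (0.20, adjusted p = 0.573) among them. That of Ptger3 was lost with the B cell score (1.18, edgeR adjusted p = 0.0516).

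Gnas encodes the Gs α subunit that couples β receptors to adenylyl cyclase, from a complex imprinted locus with several transcripts that the table sums. Young_Ctrl 1 to 4 had 928, 701, 587 and 582 CPM and Young_CL 1 to 4 had 1127, 1009, 1012 and 1271 CPM, with no overlap. Old_Ctrl had 835, 795 and 876 CPM and Old_CL had 1185, 1197, 1349 and 1186 CPM, again with no overlap. The increase was similar in size at both ages, 1.58-fold at 2 months (edgeR log2 difference 0.66, SE 0.15, adjusted p = 0.00227) and 1.47-fold at 12 months (0.56, SE 0.16, adjusted p = 0.0107), with an interaction of -0.10 (interval -0.56 to 0.36, edgeR adjusted p = 0.802). With the adipocyte score as a covariate the changes were 0.31 and 0.10 (edgeR adjusted p = 0.097 and 0.678), with the B cell score 0.48 and 0.43 (adjusted p = 0.142 and 0.086), and without the muscle-rich libraries the aged change was 0.48 (adjusted p = 0.097). Age differences were 0.26 under vehicle and 0.15 under CL (edgeR adjusted p = 0.237 and 0.425). Gnas shares 988 exonic bases with the antisense gene Nespas and 1469 with Gm20721 on the opposite strand.

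Of 27 listed G protein subunit genes, 24 were tested. At 2 months 10 rose and 1 fell (21.7% of all genes higher and 22.1% lower), and at 12 months 6 rose and 8 fell (23.1% and 22.2% of all genes). Under vehicle 8 were higher in aged mice and 0 lower (15.1% and 12.2% of all genes). The largest increase was that of Gnao1, a Gi-family α subunit best known from neurons, from 6.14 ± 3.34 to 46.6 ± 9.42 CPM at 2 months (SD, n = 4 and 4; the change was 3.01 by edgeR on the log2 scale, SE 0.29, adjusted p = 1.47e-06) and from 10.3 ± 2.68 to 40.5 ± 2.95 CPM at 12 months (SD, n = 3 and 4, log2 change 2.03, adjusted p = 0.000129). Per kilobase Gnao1 reached 5.37 CPM in Young_CL, against 43.7 for Gnai1, a Gi subunit of wide expression. Gnai1 itself was higher in aged mice under vehicle (0.91, edgeR adjusted p = 0.00108) and under CL (0.96, adjusted p = 0.000111), and rose with CL by 0.39 and 0.44 (adjusted p = 0.0307 and 0.0247). The calls for CL were lost in 10 of 20 alternatives at 2 months and 8 of 20 at 12 months (0.13 at both ages with the adipocyte score, edgeR adjusted p = 0.633 and 0.683). Both age calls of Gnai1 were lost with the B cell score (0.41 and 0.58, edgeR adjusted p = 0.614 and 0.0573). Gnaq, the Gq subunit through which α1 receptors signal, rose with CL at 12 months by 0.42 (edgeR adjusted p = 0.00522), while Gna15, a Gq-family subunit of blood cells, fell at both ages (-0.48 and -0.92, adjusted p = 0.0198 and 0.000431). Gnaq was at 0.077 with the adipocyte score (edgeR adjusted p = 0.662). Gna15 at 2 months was then at -0.42 (edgeR adjusted p = 0.223), and 5 of 20 alternatives ended the young Gna15 call.

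Rgs2 encodes a protein that shortens signalling by Gq and also inhibits adenylyl cyclase signalling by Gs. It showed the largest increase of the 9 genes at 2 months and was the one gene of the 9 whose CL response differed with age in the test. Young_Ctrl 1 to 4 had 27.0, 28.1, 30.3 and 30.0 CPM, and Young_CL 1 to 4 had 165, 152, 115 and 203 CPM. Old_Ctrl 1, 3 and 4 had 26.7, 29.8 and 36.5 CPM, and Old_CL 1 to 4 had 72.3, 64.3, 102 and 74.1 CPM. Vehicle libraries of both ages lie together, every CL library lies above them, and every Young_CL library lies above every Old_CL library. The mean rose 5.51-fold at 2 months, from 28.8 ± 1.57 to 159 ± 36.4 CPM (SD, n = 4 and 4, log2 difference by edgeR 2.46, SE 0.17, adjusted p = 6.44e-08). It rose 2.51-fold at 12 months, from 31.0 ± 5.00 to 78.1 ± 16.3 CPM (SD, n = 3 and 4, log2 change 1.33, SE 0.18, adjusted p = 7.12e-05). The age difference was 0.11 under vehicle (interval -0.27 to 0.49, edgeR adjusted p = 0.684) and -1.03 under CL (SE 0.16, adjusted p = 0.000234).

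The increase of Rgs2 in aged mice was smaller than in young mice by 1.13 on the log2 scale (interaction -1.13, interval -1.64 to -0.62, SE 0.24, edgeR adjusted p = 0.0137). Leaving out each library in turn gave -1.29 to -0.996, all past the threshold; with Old_CL 1, 2 and 4 summed into 1 sample it was -0.99 (edgeR adjusted p = 0.1). The difference was -1.14 (edgeR adjusted p = 0.00848) with the adipocyte score as a covariate and -1.66 (adjusted p = 0.00552) without the 5 muscle-rich libraries, a fit that keeps 1 Young_CL library. Beyond these values the part of adipocyte and muscle content in it was not tested.

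**Figure D2:**
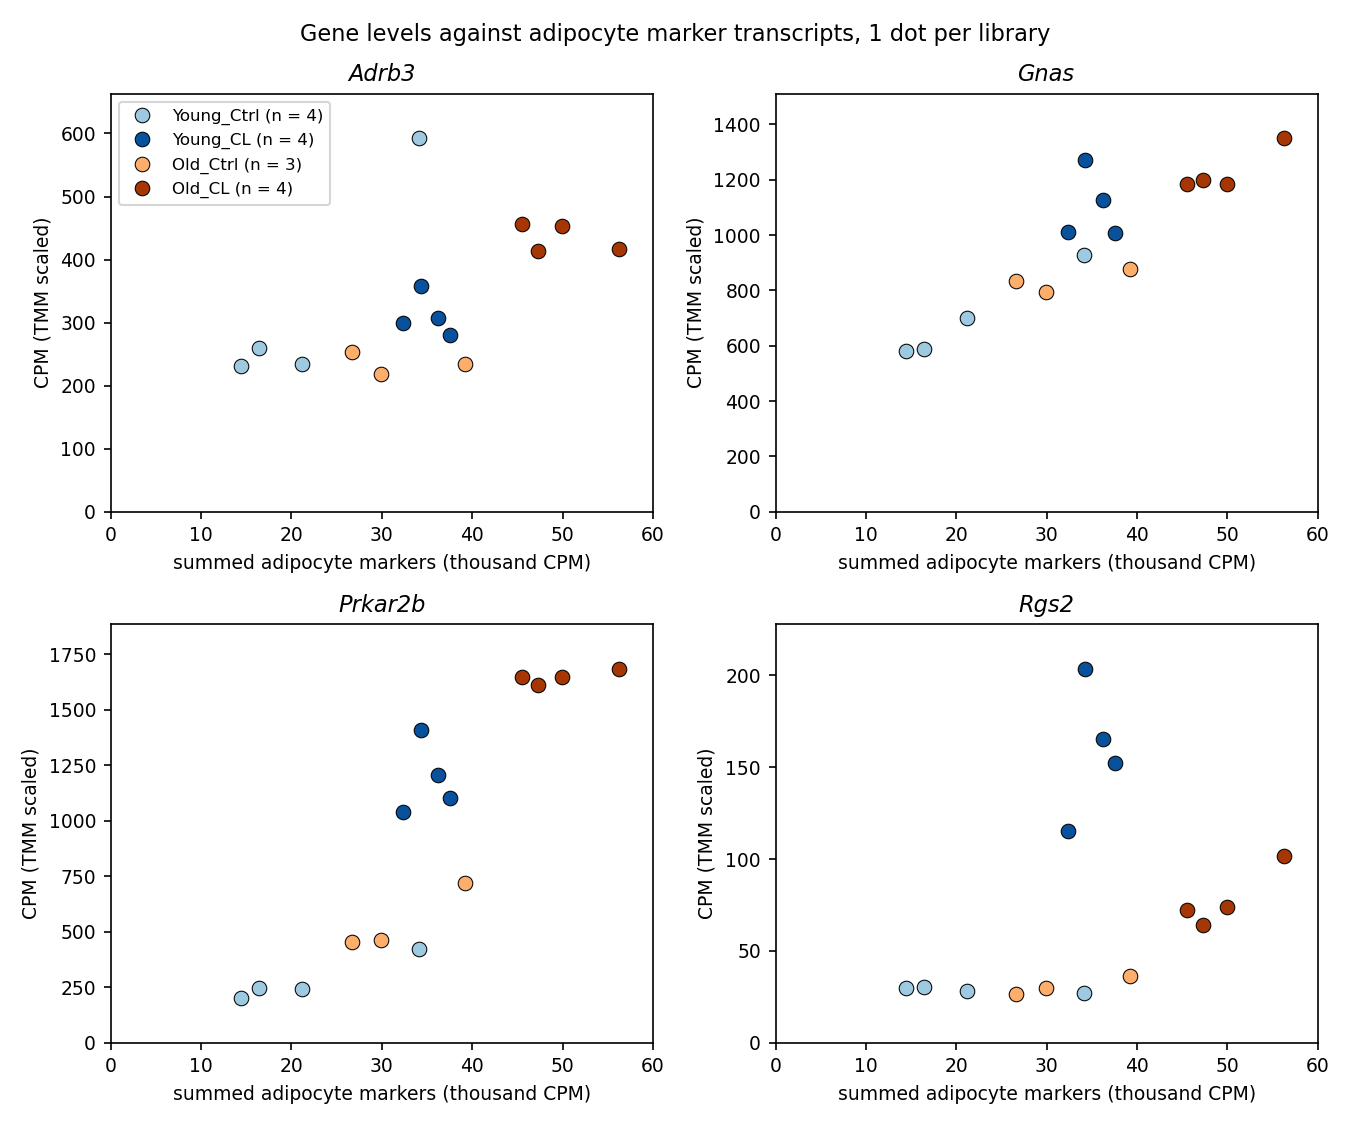
TMM-scaled CPM of Adrb3, Gnas, Prkar2b and Rgs2 (vertical axes from 0) against the summed CPM of 9 adipocyte markers (horizontal axis, scaled as its label states), 1 dot per library, coloured by group. Gnas rises along the axis across the groups, whereas Rgs2 stays between 26.7 and 36.5 CPM in all vehicle libraries and lies between 64.3 and 203 CPM in the CL libraries.

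RGS proteins speed the shut-off of G protein α subunits. Of 19 listed genes, Rgs2 included, 17 were tested; 2 rose and 5 fell at 2 months (median log2 change -0.49), beside 21.7% of all genes higher and 22.1% lower, and 4 rose and 9 fell at 12 months (median -0.76), beside 23.1% and 22.2% of all genes. Rgs7 rose with Rgs2, by 1.43 and 1.87 (edgeR adjusted p = 0.000427 and 0.000129), reaching 16.9 ± 2.41 CPM in Young_CL and 19.5 ± 2.71 in Old_CL (SD, n = 4 and 4). Rgs10, known from macrophages and lymphocytes, fell at both ages (-0.61 and -1.30, edgeR adjusted p = 0.0102 and 8.72e-05), and so did Rgs16 (-0.71 and -1.74, adjusted p = 0.0121 and 4.15e-05). Of 8 macrophage markers 5 fell at 12 months and 0 at 2 months. The part of immune cell content in these changes was not tested beyond the covariate fits. The young values of Rgs7, Rgs10 and Rgs16 were 0.70, -0.28 and -0.30 with the adipocyte score (edgeR adjusted p = 0.0645, 0.468 and 0.521). The aged calls of Rgs7, Rgs10 and Rgs16 held in each of 20 alternatives, the B cell score among them (Rgs10 at -1.56 to -0.94). Rgs3 went the other way from Rgs2 in the age comparison: its CL change was -0.24 at 2 months (edgeR adjusted p = 0.0916) and 0.65 at 12 months (adjusted p = 0.000633), with an interaction of 0.89 (SE 0.16, adjusted p = 0.00698; 0.72 and adjusted p = 0.166 without the 5 muscle-rich libraries). Rgs2 counts amounted to 4.31% ± 1.08 of Gnas counts in Young_Ctrl, 14.3% ± 2.02 in Young_CL, 3.70% ± 0.486 in Old_Ctrl and 6.32% ± 0.901 in Old_CL (SD over 4, 4, 3 and 4 libraries).

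Arrb1 encodes β-arrestin 1, which binds phosphorylated receptors and uncouples them from G proteins. Young_Ctrl had 123, 127, 101 and 106 CPM and Young_CL had 85.9, 81.6, 92.5 and 94.1 CPM, every CL library below every vehicle library. Old_Ctrl had 152, 129.7 and 129.9 CPM and Old_CL had 145, 152, 131 and 146 CPM, and these groups overlap. The young mean was 1.29-fold lower after CL (114 ± 12.5 to 88.5 ± 5.85 CPM, SD, n = 4 and 4, log2 difference by edgeR -0.37, SE 0.10, adjusted p = 0.00579), a call that was lost when the 5 muscle-rich libraries were left out (-0.28, adjusted p = 0.247) or the B cell score was a covariate (-0.28, adjusted p = 0.203). At 12 months the change was 0.06 (interval -0.15 to 0.28, edgeR adjusted p = 0.64). Under CL, aged mice were 1.62-fold higher than young mice (0.70, SE 0.10, edgeR adjusted p = 6.93e-05), with all 4 Old_CL libraries above all 4 Young_CL libraries, and this held in each alternative run. The interaction was 0.43 (interval 0.13 to 0.73, edgeR adjusted p = 0.073).

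Of the 7 arrestin and receptor kinase genes, 1 rose and 5 fell at 2 months and 0 rose and 4 fell at 12 months (median log2 change -0.42 and -0.39), beside 21.7% of all genes higher and 22.1% lower at 2 months and 23.1% and 22.2% at 12 months. Arrb2, encoding β-arrestin 2, fell at both ages (-0.49 and -0.80, edgeR adjusted p = 0.00446 and 0.000249), as did the receptor kinase gene Grk6 (-0.58 and -0.42, adjusted p = 0.00104 and 0.0126). None of these 4 calls passed with the adipocyte score. Arrb2 was then at -0.16 and -0.42 (edgeR adjusted p = 0.433 and 0.0695) and Grk6 at -0.29 and -0.068 (adjusted p = 0.103 and 0.783). Grk5, another receptor kinase, was the gene that rose, by 0.85 at 2 months (edgeR adjusted p = 0.000411). Adrbk2, a β-adrenergic receptor kinase, fell at 12 months, from 45.9 ± 6.15 to 26.9 ± 4.65 CPM (SD, n = 3 and 4, log2 difference by edgeR -0.77, adjusted p = 0.00213). Its interaction of -0.87 (edgeR adjusted p = 0.0377) did not pass when any of 10 single libraries was left out (adjusted p = 0.0503 to 0.0804).

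**Figure D3:**
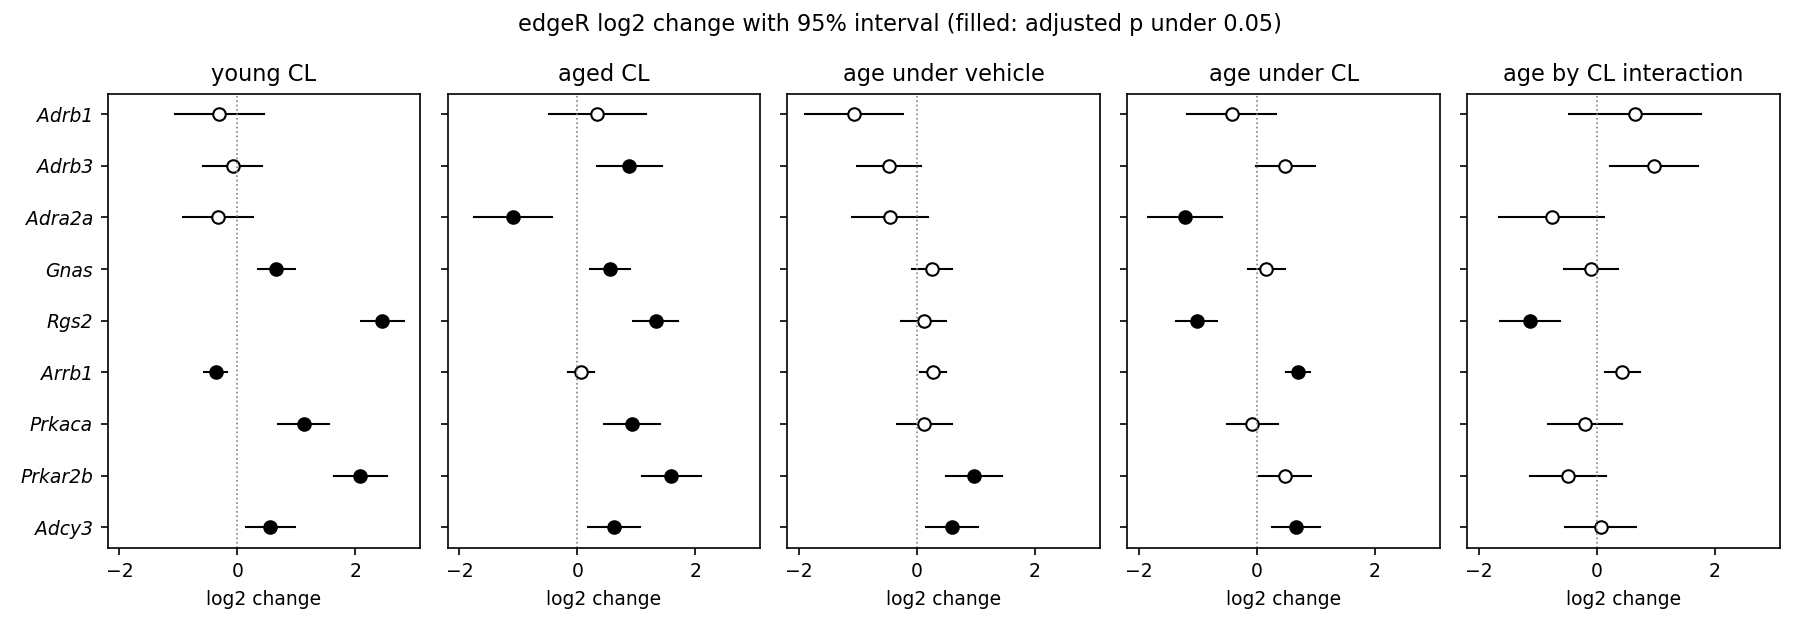
edgeR log2 difference of the 9 genes with 95% intervals in the 5 comparisons (horizontal axes, the same scale throughout); filled circles mark an adjusted p under 0.05. Rgs2, Prkar2b, Prkaca, Gnas and Adcy3 are filled and to the right of 0 for CL at both ages, and Rgs2 is the filled gene in the interaction.

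Adcy3 encodes a membrane adenylyl cyclase that makes cyclic AMP in response to Gs. Young_Ctrl had 50.9, 40.9, 30.2 and 30.05 CPM and Young_CL had 50.8, 50.6, 58.3 and 63.3 CPM, with Young_Ctrl 1 reaching into the CL range. Old_Ctrl had 60.1, 37.1 and 74.4 CPM and Old_CL had 84.2, 86.1, 97.3 and 83.1 CPM, with no overlap. It rose 1.47-fold at 2 months (edgeR log2 difference 0.56, SE 0.19, adjusted p = 0.0291) and 1.54-fold at 12 months (0.62, SE 0.21, adjusted p = 0.0241), and was higher in aged mice under vehicle (0.59, adjusted p = 0.0443) and under CL (0.66, adjusted p = 0.0133). These were the least stable calls of the 9 genes. The young call was lost without Young_Ctrl 3 or 4 or Young_CL 3 or 4 (edgeR adjusted p = 0.0926, 0.0947, 0.0586 and 0.0705) and the aged call without Old_Ctrl 3 or Old_CL 3 (0.38 and 0.57, adjusted p = 0.119 and 0.0571), and with the adipocyte score as a covariate the changes were 0.05 and 0.00 (adjusted p = 0.893 and 0.993). The age call under vehicle was lost in 9 of 19 alternatives and turned sign in 1, with 0.34 (edgeR adjusted p = 0.282) without Old_Ctrl 4 and 0.22 (adjusted p = 0.46) with the adipocyte score. The age difference under CL was 0.17 (edgeR adjusted p = 0.555) with that score. Adcy3 shares 1221 exonic bases with Cenpo on the opposite strand.

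Of 10 listed genes 9 were tested; 2 rose and 1 fell at 2 months (21.7% of all genes higher and 22.1% lower), 5 rose and 1 fell at 12 months (23.1% and 22.2% of all genes), and under CL 5 were higher in aged mice and 0 lower (20.5% and 19.4%). Adcy5 showed the largest age difference, from 54.1 ± 22.2 in Young_Ctrl to 171 ± 18.5 CPM in Old_Ctrl (SD, n = 4 and 3, log2 difference by edgeR 1.67, SE 0.23, adjusted p = 0.000436) and from 44.9 ± 7.24 in Young_CL to 260.3 ± 16.0 CPM in Old_CL (SD, n = 4 and 4, log2 change 2.54, SE 0.23, adjusted p = 1.78e-06). Per kilobase Adcy5 stood at 7.72 CPM in Young_Ctrl, next to 7.56 for Adcy3, and at 37.1 in Old_CL, above 17.4 for Adcy3 and below 58.9 for Adcy6. Adcy6 rose with CL at 12 months by 0.49 (edgeR adjusted p = 0.00341) and was higher in aged mice under CL by 0.60 (adjusted p = 0.000581). Adcy7, the cyclase typical of immune cells, fell at both ages (-0.81 and -0.75, edgeR adjusted p = 0.00052 and 0.00154), and the soluble cyclase Adcy10 rose from very low levels (1.77 and 2.17, adjusted p = 0.00254 and 0.00213; 4 to 103 counts per library). Adcy7 was at -0.33 and -0.21 with the adipocyte score (edgeR adjusted p = 0.0886 and 0.359). Adcy10 was then at 0.70 and 0.89 (edgeR adjusted p = 0.361 and 0.328), and Adcy6 for CL at 0.29 (adjusted p = 0.198). With the B cell score the age difference of Adcy5 under vehicle was 1.24 (edgeR adjusted p = 0.355), while that under CL passed in each alternative run.

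Prkaca encodes the main catalytic subunit of protein kinase A, Cα. Young_Ctrl had 216, 125, 100.4 and 93.8 CPM and Young_CL had 282, 287, 278 and 321 CPM. Old_Ctrl had 152, 117 and 167 CPM and Old_CL had 289, 276, 267 and 273 CPM. Every CL library exceeded every vehicle library of either age, and the CL libraries of the ages overlap. The increase was 2.19-fold at 2 months (edgeR log2 difference 1.13, SE 0.21, adjusted p = 0.000493) and 1.90-fold at 12 months (0.93, SE 0.22, adjusted p = 0.00362), with an interaction of -0.20 (interval -0.83 to 0.43, adjusted p = 0.701). The age differences were 0.12 under vehicle and -0.08 under CL (edgeR adjusted p = 0.706 and 0.783). With the adipocyte score as a covariate the increase was 0.55 at 2 months (edgeR adjusted p = 0.00909) and 0.14 at 12 months (adjusted p = 0.587). With the B cell score it was 0.77 and 0.67 (edgeR adjusted p = 0.0797 and 0.0517), and at 12 months 0.81 (adjusted p = 0.0504) without the muscle-rich libraries.

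Prkar2b encodes RIIβ, the regulatory subunit of protein kinase A that predominates in fat. Young_Ctrl had 424, 242, 249 and 204 CPM and Young_CL had 1207, 1102, 1041 and 1408 CPM. Old_Ctrl had 452, 461 and 719 CPM and Old_CL had 1647, 1612, 1682 and 1647 CPM. The 4 groups do not overlap at all: each Old_Ctrl library lies above each Young_Ctrl library, and each Old_CL library above each Young_CL library. CL raised it 4.26-fold at 2 months, from 279.7 ± 98.2 to 1189 ± 161 CPM (SD, n = 4 and 4, log2 difference by edgeR 2.09, SE 0.21, adjusted p = 2.12e-06). At 12 months it rose 3.03-fold, from 544 ± 151 to 1647 ± 28.5 CPM (SD, n = 3 and 4, log2 change 1.60, SE 0.23, adjusted p = 0.000107). Both calls held in each alternative run. Prkar2b was 1.95-fold higher in aged mice under vehicle (0.96, SE 0.22, edgeR adjusted p = 0.00655; 0.71 and adjusted p = 0.0546 without Old_Ctrl 4, 0.19 and adjusted p = 0.917 with the B cell score), and under CL the age difference was 0.47 (interval 0.03 to 0.91, adjusted p = 0.0823). The interaction was -0.49 (interval -1.14 to 0.15, edgeR adjusted p = 0.315), and -0.76 (adjusted p = 0.0394) without Young_Ctrl 1.

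The ratio of Prkar2b to Prkaca counts within a library went up from 2.14 ± 0.252 in Young_Ctrl to 4.07 ± 0.318 in Young_CL and from 3.74 ± 0.684 in Old_Ctrl to 5.97 ± 0.266 in Old_CL (SD over 4, 4, 3 and 4 libraries). In Young_Ctrl it ran from 1.94 to 2.48 over the 4 libraries. The part of adipocyte content in the ratio was not tested. The ratio is not adjusted for length and is given as a description.

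**Figure D4:**
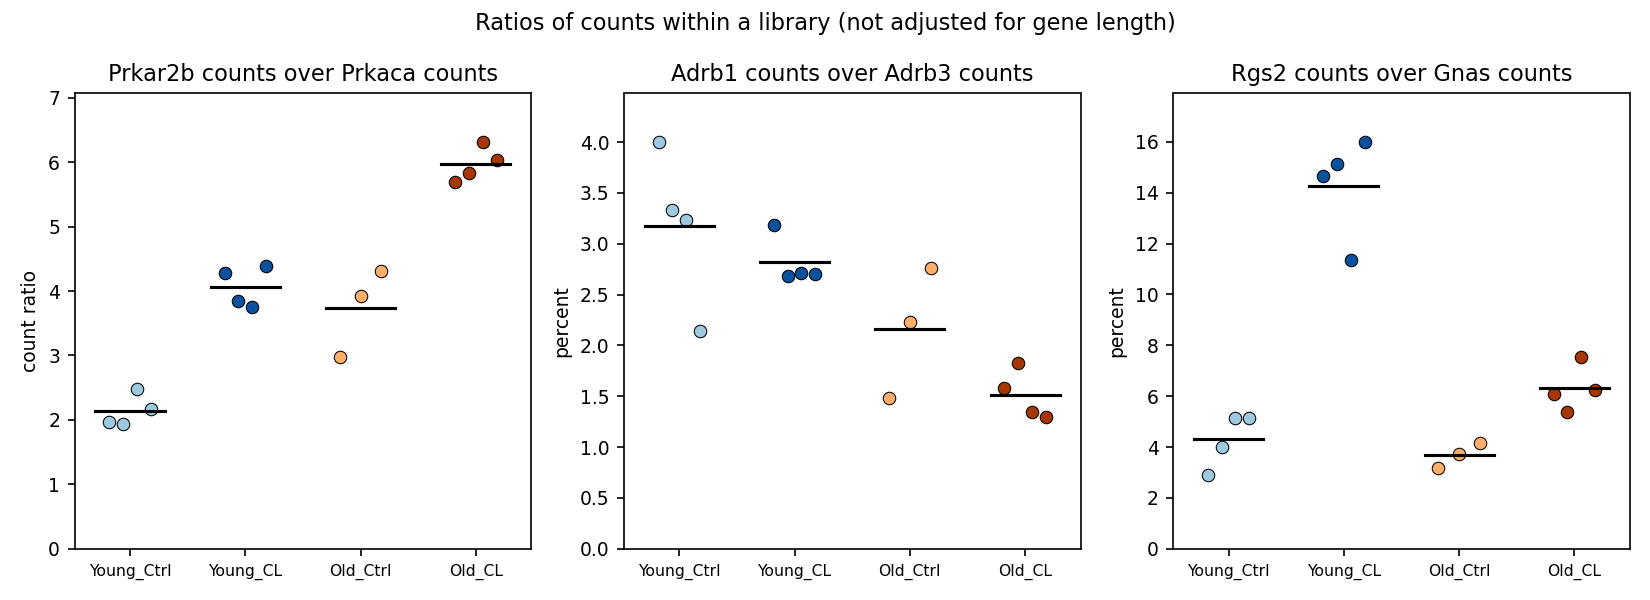
Ratios of counts within each library: Prkar2b over Prkaca, Adrb1 over Adrb3 in percent and Rgs2 over Gnas in percent (vertical axes from 0), 1 dot per library, with a bar at the group mean. The Prkar2b to Prkaca ratio lies at 1.94 to 2.48 in Young_Ctrl and 5.69 to 6.31 in Old_CL, and the Rgs2 to Gnas ratio is highest in Young_CL, at 11.4 to 16.0%.

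Of 9 genes for subunits and inhibitors of protein kinase A, 2 rose and 1 fell at 2 months (21.7% of all genes higher and 22.1% lower) and 2 rose and 3 fell at 12 months (23.1% and 22.2% of all genes), the genes that rose being Prkaca and Prkar2b at each age. Prkar1a, the widely expressed RIα subunit, was chosen for its flat profile after its values were seen: its means were 269 ± 19.4, 281 ± 17.9, 285 ± 21.1 and 278 ± 7.09 CPM in Young_Ctrl, Young_CL, Old_Ctrl and Old_CL (SD, n = 4, 4, 3 and 4). Against it the count of Prkar2b went from 1.05 ± 0.418 to 4.26 ± 0.720 times in young mice and from 1.89 ± 0.388 to 5.92 ± 0.0540 times in aged mice. With a gene picked as flat below the line, this ratio largely restates the change of Prkar2b. Under vehicle 5 of the 9 were higher in aged mice and 0 lower (15.1% and 12.2% of all genes), among them Prkar2a (0.60, edgeR adjusted p = 0.00251) and the low-level Prkar1b (0.89, adjusted p = 0.00318). With the B cell score, which differs between the groups, these were 0.37 and 1.16 (edgeR adjusted p = 0.609 and 0.265). The Prkar1b call was thus lost although its estimate did not shrink. The inhibitor gene Pkib fell with CL at both ages (-0.67 and -1.35, edgeR adjusted p = 0.0324 and 0.000653), from 7.17 ± 1.71 to 4.55 ± 0.765 and from 7.56 ± 2.45 to 2.84 ± 0.701 CPM (SD, n = 4 and 4, 3 and 4). The young call was lost in 9 of 20 alternatives, among them the muscle score (edgeR adjusted p = 0.0668). The changes of Pkib were -0.31 and -0.96 with the adipocyte score (edgeR adjusted p = 0.585 and 0.0948).

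**Figure D5:**
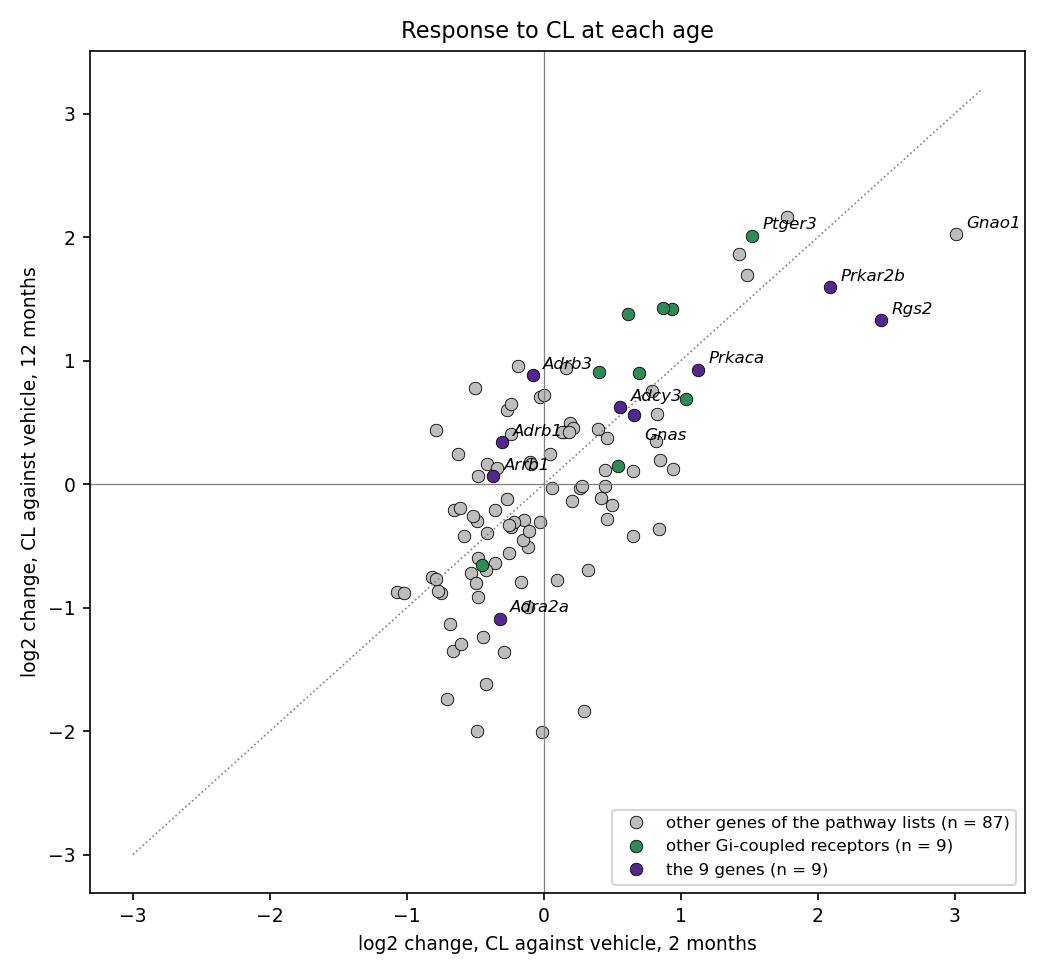
edgeR log2 difference with CL at 2 months (horizontal axis) against that at 12 months (vertical axis) for the 9 genes, 9 other Gi-coupled receptors and 87 other tested genes of the pathway lists, with the line of equal change dotted. Rgs2 lies below the line at 2.46 and 1.33, Prkar2b lies at 2.09 and 1.60, and Gnao1 lies farthest to the right at 3.01.

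Across the 15 libraries, levels of several of the 9 genes moved together (Pearson r of log2 CPM, a description over 4 pooled groups that share the CL and age differences and the adipocyte content). Gnas, Prkar2b and Prkaca had r = 0.960, 0.944 and 0.924 for their 3 pairs. Adcy3 joined them (0.866 with Gnas, 0.852 with Prkar2b and 0.765 with Prkaca), whereas Arrb1 ran against Rgs2 (-0.532) and Adra2a ran against Adcy3 and Prkar2b (-0.659 and -0.652). Among all tested genes with an average log2 CPM of at least 3, the pattern most like that of Prkar2b was shown by Acsl1 (0.995), a fatty acid activating enzyme, and by the peroxisome import genes Pex19 and Pex5 (0.992 and 0.991). The genes most like Rgs2 were Fuom (0.984), Mrps2 (0.982) and Minos1 (0.982), the last 2 encoding mitochondrial proteins. Most like Gnas was Mmachc (0.987), most like Prkaca was Ppp2r5b (0.989), and most like Adcy3 was Ttyh2 (0.976). Arrb1 was closest to Ssh3 (0.959) and to the phosphodiesterase gene Pde2a (0.953). The receptors had less close companions, Pigf for Adrb3 (0.930), Tmem179b for Adra2a (0.904) and Parp16 for Adrb1 (0.832).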

How the data were processed

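The authors deposited 1 table of raw read counts per gene, which per the submitters' processing notes came from STAR, featureCounts of Subread and the mouse build mm9. Versions, the annotation and the strand setting are not given in the sources used here. Each column was matched to a sample by its label, and 0 per-sample columns were left unmapped. The 15 libraries were fitted together with 1 mean per group in edgeR 4.0.16 (R 4.3.3): filterByExpr, TMM scaling, robust quasi-likelihood test, Benjamini-Hochberg adjustment over 15288 genes, called at an adjusted p under 0.05. Each standard error is the size of the log2 change divided by the root of its F statistic, and 95% intervals use the fit's degrees of freedom. CPM are TMM scaled. With 6115542 to 51577001 counts per library, 3 counts correspond to 0.491 and 0.0582 CPM. The test was checked on simulated data.

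The 9 genes, 9 pathway lists (117 symbols) and 10 marker lists were chosen with earlier results of these data known. Named genes are the 9 members and, from each pathway list, up to 4 tested others with the smallest p in any comparison. Outside this rule, Prkar1a was chosen after its values were seen, and other genes are named for exon overlap or for likeness to a member. The marker lists gave, for CL at 2 and at 12 months, 6 and 7 of 9 adipocyte markers higher, 0 and 0 of 11 muscle markers called, 8 and 5 of 8 B cell and 8 and 8 of 8 T cell markers lower, and 0 and 5 of 8 macrophage markers lower. Of 7 progenitor markers 1 and 6 were lower, of 7 endothelial markers 1 and 1 higher, of 6 smooth muscle markers 1 and 4 higher (2 and 0 lower), of 5 nerve markers 1 and 1 higher (2 and 0 lower), and of 4 mammary markers 0 and 2 lower. Alternatives were RLE and upper-quartile scaling, DESeq2 1.42.0, limma-voom 3.58.1, other filters, 2 groups alone, a replicate block, each library left out, the 5 muscle-rich libraries left out, marker scores as covariates, and Old_CL 1, 2 and 4 summed.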

Additional observations from a re-analysis of the deposited data

Results flagged for a closer look

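In Adrb3, Young_Ctrl 1 stood apart from the other 3 libraries of its group: the gap to the nearest was 0.919 of the group's range, above Dixon's critical value for 4 samples. In Gnas, Old_CL 3 stood above the other 3 with a gap of 0.928 of the range, at 1349 against 1185 to 1197 CPM. Chance gives about 1 such group in 20 when libraries are independent, and 27 groups of 4 libraries were looked at. Over all genes Old_CL 1, 2 and 4 lay closer to each other (robust SD of log2 ratios 0.0636 to 0.0933) than to Old_CL 3 (0.212 to 0.229), the muscle-rich library of that group. The share of 1 in 20 may therefore not hold for Old_CL, and whether the gap is particular to Gnas was not tested. The CL response differed between the ages in the edgeR interaction test for Rgs2 (-1.13, adjusted p = 0.0137; the increase was larger at 2 months, with every CL library above every vehicle library at both ages). It also differed for Adora2b, a Gs-coupled adenosine receptor (-2.13, edgeR adjusted p = 0.0202), which fell by 1.84 at 12 months (adjusted p = 0.000733). That difference was -0.32 (edgeR adjusted p = 0.871) without the 5 muscle-rich libraries, -1.97 and -1.93 (adjusted p = 0.0547 and 0.0533) without Young_CL 1 or 2, and -2.01 (adjusted p = 0.109) with 3 Old_CL libraries summed. Rgs3 differed by 0.89 (edgeR adjusted p = 0.00698) and the receptor kinase gene Adrbk2 by -0.87 (edgeR adjusted p = 0.0377).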

How the results depend on the processing

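Over the 45 changes of the 9 genes, 865 of 963 alternative values kept direction and side of the threshold, 45 lost the call, 27 gained it and 26 turned sign. Over 69 changes of other named genes the numbers were 1242 of 1402, 156, 3 and 1. Whether the replicate numbers mark a pairing could not be told from the libraries. Deviations from the group mean had r = -0.347 to 0.343 over 21 pairs with the same number, 6 above 0.1. Pairs with different numbers ranged as widely, from -0.517 to 0.433, so a shared litter or day is not excluded. With a replicate block 1 member was called for age under vehicle against 2, and 641 genes in the interaction against 1083. Signs turned as follows. With upper-quartile scaling Arrb1 for aged CL was -0.016, and with limma-voom Adrb1 for young CL was 0.067. Leaving out 1 library gave -0.56 to 0.32 for Adrb1 and -0.22 to 0.36 for Adrb3 in young CL (both highest without Young_Ctrl 1), -0.18 (without Old_Ctrl 3) to 0.31 for the Adcy3 interaction, which was -0.10 without Young_Ctrl 1, and, for age under vehicle, -0.015 (without Young_Ctrl 4) to 0.45 for Prkaca and -0.027 (without Old_Ctrl 4) to 0.20 for Rgs2. Without the muscle-rich libraries Adrb3 and Adra2a for young CL were 0.13 and 0.15, Gnas for age under CL was -0.13 and the Adcy3 interaction was -0.42. With the B cell score Adrb1 for aged CL was -0.035. Gnas, Rgs2, Prkaca, Adcy3 and Akap5 for age under vehicle were then -0.029, -0.24, -0.46, -0.098 and 0.077, and Gnas and Prkar2b for age under CL were -0.080 and -0.14. With the adipocyte score Adrb1 and Arrb1 for aged CL were -0.97 and -0.049, Prkaca for age under vehicle was -0.27, Adrb3, Gnas and Prkar2b for age under CL were -0.11, -0.19 and -0.092, and the Adcy3 interaction was -0.048. The cause was not tested. Counts of called members moved for age under vehicle from 2 to 4 with DESeq2, 1 with no filter, 1 with 2 groups alone and 0 with the B cell score. In the interaction they moved from 1 to 3 with DESeq2, 4 with the adipocyte score and 0 with Old_CL 1, 2 and 4 summed. Under CL they moved from 4 to 7 with 2 groups alone and 2 with the B cell score. For aged CL they moved from 7 to 2 without the muscle-rich libraries, 3 with the B cell and 3 with the adipocyte score, and for young CL from 6 to 2 with the B cell score. Counts of all called genes moved in the interaction from 1083 to 1871 with DESeq2, 203 without the muscle-rich libraries, 2439 with the adipocyte score and 139 with Old_CL summed. For age under vehicle they moved from 4162 to 1877 with 2 groups alone, 15 with the B cell and 1566 with the adipocyte score. For young CL they moved from 6706 to 2974 without the muscle-rich libraries, 1707 with the B cell and 2493 with the adipocyte score. For age under CL they moved from 6108 to 1869, 2067 and 3192 in the same order, and to 3818 with Old_CL summed, and for aged CL from 6916 to 1709 with the adipocyte score. Leaving out each library gave 5 to 7, 6 to 7, 0 to 5, 4 to 4 and 1 to 3 called members for young CL, aged CL, age under vehicle, age under CL and the interaction, and 5418 to 7609, 5599 to 6245, 1739 to 5851, 4849 to 6063 and 431 to 2070 called genes. Depth limits Adra2a most, with 14 counts in its lowest library.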

Other observations

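A-kinase anchoring proteins place protein kinase A at given sites in the cell. Of 14 listed genes 12 were tested; 2 rose and 4 fell with CL at 2 months (21.7% of all genes higher and 22.1% lower), and 4 rose and 0 fell at 12 months (23.1% and 22.2% of all genes). Akap7 rose at both ages, by 0.79 and 0.76 (edgeR adjusted p = 1.22e-05 and 7.03e-05). Akap12 was higher in aged mice under vehicle (0.76, edgeR adjusted p = 0.00234) and under CL (1.31, adjusted p = 6.91e-06). Akap5 was lower in aged mice (-1.23 under vehicle and -1.97 under CL, edgeR adjusted p = 0.012 and 0.000153). With the B cell score as a covariate Akap12 under vehicle was at 0.76 (edgeR adjusted p = 0.375) and Akap5 at 0.077 and -0.92 (adjusted p = 0.98 and 0.124).

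Age differences also appeared among receptors that act on cyclic AMP. Of 9 tested Gi-coupled receptor genes, 5 were higher and 1 lower in aged mice under vehicle (15.1% and 12.2% of all genes), and 8 higher and 1 lower under CL (20.5% and 19.4%). Ffar2, a receptor for short-chain fatty acids, was higher by 1.77 under vehicle and 1.38 under CL (edgeR adjusted p = 5.03e-06 and 2.81e-06). Ptger3, which rose with CL at both ages, was lower in aged mice (-1.27 and -0.78, edgeR adjusted p = 0.00435 and 0.0144); with the B cell score these were -1.80 and -1.18 (adjusted p = 0.265 and 0.058). Tshr, the Gs-coupled thyrotropin receptor gene, was higher by 1.13 and 1.60 (edgeR adjusted p = 0.00372 and 8.33e-05), and by 0.70 under vehicle with the B cell score (adjusted p = 0.639).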
